A study of Drosophila melanogaster with 40 samples.

Results

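The glutathione transferase family of Drosophila melanogaster was followed in whole flies after heat shock. Its members were taken as the genes of the count table whose FlyBase identifier maps to a symbol starting GstD, GstE, GstO, GstS, GstT or GstZ followed by a number. This rule gave 35 of 17609 genes, with 11 GstD, 14 GstE, 3 GstO, 1 GstS, 4 GstT and 2 GstZ members, and all 35 passed the filter on low counts. The files hold 40 libraries of 3' end sequencing, which reads 1 tag near the end of each transcript. Insulin ablated old and insulin ablated young flies, which lack the insulin-producing cells, gave 7 libraries each. Wild type old and wild type young flies gave 13 libraries each. Heat-shocked flies were collected at 0, 1, 2, 4, 6 and 8 h after the heat shock, and a control without heat shock was taken at 4 h, once for each genotype at each age. Heat-shocked wild type libraries came in pairs of non-climbers and climbers, sorted by a negative geotaxis assay. Heat-shocked ablated libraries were all of climbers, and controls had no behaviour assessed. The way the cells were ablated, the ages in days, the sex, and the temperature and length of the heat shock are not given in the sources used here.

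Glutathione transferases join glutathione, the main small thiol of the cell, to electrophilic compounds, which makes these compounds more soluble and easier to export. In insects the Delta (GstD) and Epsilon (GstE) classes have expanded into tandem gene clusters and are known for detoxification of insecticides and of lipid peroxidation products. The Omega (GstO), Sigma (GstS), Theta (GstT) and Zeta (GstZ) classes are shared more widely among animals. Transcription of fly members such as GstD1, a common reporter of the oxidative stress response, is driven by CncC, the fly counterpart of Nrf2.

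The 11 GstD genes formed 1 tandem cluster on chromosome arm 3R, between positions 12364776 and 12385624, and 10 of the 14 GstE genes (GstE10 and GstE1 to GstE9) formed another on arm 2R, between 18396638 and 18409835 (dm6 coordinates). GstE11, GstE12, GstE13 and GstE14 lie elsewhere on arm 2R, and GstO1, GstO2 and GstO3 lie side by side on arm 3L. Levels are given as CPM, counts scaled to a common library total with TMM factors. The median level over the 40 libraries ran from 0.113 CPM for GstD6 to 1650 CPM for GstD1. GstD6 had no count in 13 libraries and GstD11 in 5. Neighbouring copies are alike in sequence, and how the authors treated reads that match several copies is not given in the sources used here, so the split of counts between close copies is uncertain. The strand setting of the counting is also not given, which leaves counts uncertain for members that overlap a gene on the other strand, namely GstE1 with GstE10, GstE9 with imd, GstE12 with CG3894, GstE13 with CG18659, GstO2 with se and GstT2 with CG12926.

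Library totals ran from 11714961 to 48747409 counts. As a check of the ablation, the insulin-like peptide transcripts Ilp2, Ilp3 and Ilp5 together were between 0 and 1.01 CPM in the 14 ablated libraries (median 0.105) and between 1.06 and 4.01 CPM in the 26 wild type libraries (median 1.94). The highest sum was 1.01 CPM in ablated old and 0.231 CPM in ablated young flies. By the calls defined below, 3 of the 3 genes were lower than in wild type in young flies, and 2 in old flies. Of the 3 genes, 1 was higher in ablated old than in ablated young flies. The labels of treatment were checked with 14 inducible heat shock genes. Their mean on the log2 CPM scale was 5.27 in the library labelled ablated young control, against 2.68 to 4.19 in the other 3 controls, and 2.93 in the library labelled ablated young 6 h. Over 920 transcripts without protein coding, 12 of the 14 ablated libraries stood apart from all others. The libraries in doubt were used as labelled. No condition was replicated, so each p-value sets a difference against the scatter around an additive model of genotype with age, hour and behaviour, with 28 residual degrees of freedom. That scatter may be technical in part. Calls are adjusted p-values under 0.05 in edgeR's quasi-likelihood test with Benjamini-Hochberg adjustment over 11449 genes, and changes are log2 fold changes ± SE. In RNA of whole flies, fewer cells of a type and less RNA per cell cannot be told apart.

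Which members rose after heat shock, and when, was asked first. Controls were taken at 4 h alone, so at the other hours heat shock and hour are set together against them. GstE7, GstE3, GstE8 and GstO3 rose at 0 h, when GstE7 was about as high as at any later hour, and all 4 were still higher at 2 h. At 0 h, 6 of 35 members were higher and 2 were lower than in controls, where 1.73% of all tested genes were higher and 2.14% lower. At 1 h, 4 members were higher and 1 was lower (0.961% and 1.08% of all genes), and at 2 h 5 were higher (0.996%) and none was lower. The counts higher than control were 3 at 4 h (0.62%), 2 at 6 h (0.0961%) and 3 at 8 h (0.323%). In the fit of all libraries every GstE call against control was upward, and no GstD member was called higher than control before 8 h. Without the 2 libraries in doubt GstD2 and GstD9 were called higher from 4 h on, and the counts of members higher than control were 7, 4, 6, 7, 5 and 6 from 0 to 8 h. In that fit 345, 227, 297, 379, 432 and 527 of all 11394 tested genes were called, in either direction. These counts of genes hold both directions, while those of members hold the higher direction alone.

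GstE7, a member of the Epsilon cluster, had the largest change at 0 h. In the 4 controls it was 19.4 (ablated old), 31.1 (ablated young), 20.3 (wild type old) and 17.3 CPM (wild type young). Its lowest, median and highest levels over 6 libraries were 95.0, 155 and 259 CPM at 0 h, 112, 122 and 229 CPM at 1 h, and 101, 158 and 230 CPM at 2 h. At 4 h they were 80.3, 100 and 118 CPM, at 6 h 22.1, 63.6 and 98.5 CPM, and at 8 h 27.4, 45.8 and 70.6 CPM. All 24 libraries from 0 h to 4 h lay above all 4 controls, and at 6 and 8 h the ablated young library alone lay inside the range of the controls, with 22.1 and 27.4 CPM. The ablated young control, the highest of the 4, and the ablated young 6 h library are the 2 libraries in doubt. Against control the log2 change was 2.85 ± 0.33 at 0 h (adjusted p 1.59e-06), 2.77 ± 0.33 at 1 h and 2.81 ± 0.33 at 2 h. It then was 2.20 ± 0.33 at 4 h and, with an adjusted p of 0.0443, 1.54 ± 0.32 at 6 h. At 8 h it was 1.12 ± 0.32 and did not pass (adjusted p 0.0952). Without the ablated young libraries it passed at 8 h too, with 1.49 ± 0.25 (adjusted p 0.000405).

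GstE3 and GstE8, of the same cluster, followed with smaller changes. In controls GstE3 had 24.7 (ablated old), 33.1 (ablated young), 23.9 (wild type old) and 20.5 CPM (wild type young). Its median was 91.4 CPM at 0 h (64.9 to 187 over 6 libraries), 108 CPM at 2 h (57.0 to 159) and 45.1 CPM at 8 h (41.1 to 82.5). Its libraries at 0, 1, 2, 4 and 8 h all lay above the controls. The log2 change of GstE3 was 2.13 ± 0.27 at 0 h (adjusted p 5.13e-06), 1.63 ± 0.27 at 4 h and 1.15 ± 0.26 at 8 h (adjusted p 0.0306), and it passed at all 6 hours. Of 20 alternatives its 6 h call held in 9 and its 8 h call in 12, and the 6 h call of GstE7 held in 9. GstE8 had 60.6 (ablated old), 46.9 (ablated young), 46.6 (wild type old) and 62.5 CPM (wild type young) in controls. Its median was 128 CPM at 0 h (101 to 243), 93.6 CPM at 4 h (64.4 to 107) and 49.9 CPM at 8 h (45.6 to 67.1). GstE8 was thus above every control through 4 h, and its 8 h libraries overlapped them. Its log2 change was 1.43 ± 0.16 at 0 h (adjusted p 1.64e-07) and 0.80 ± 0.15 at 4 h (adjusted p 0.0127), and 0.03 ± 0.15 at 8 h.

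**Figure D1:**
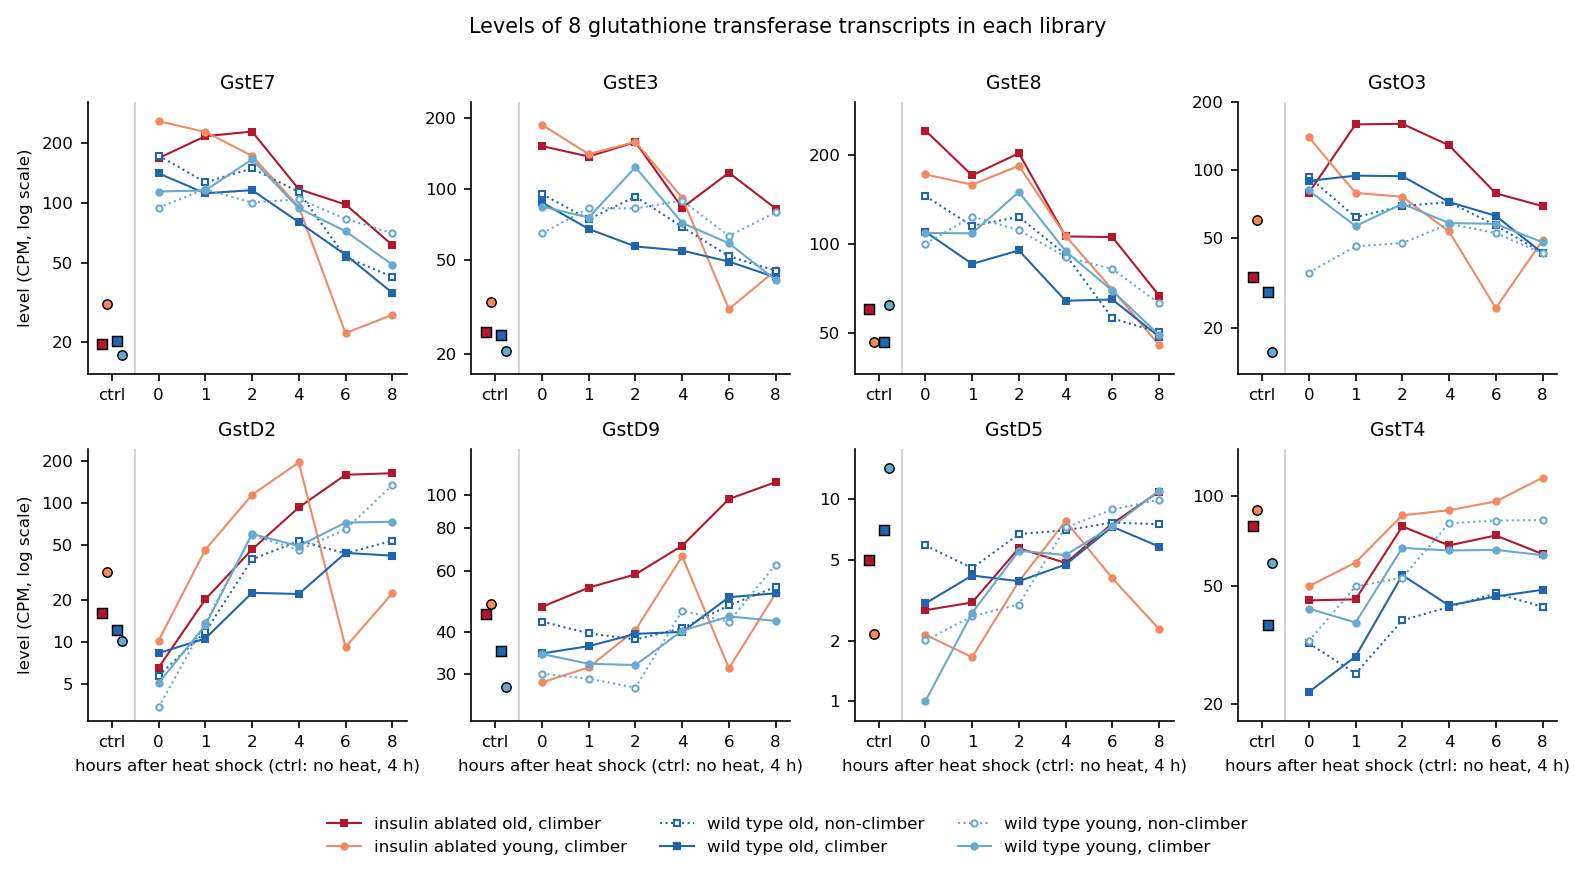
Level of 8 family members in each of the 40 libraries, in CPM on a log axis, against hours after heat shock, with the control libraries at the left (black edges). Each point is 1 library and lines join the libraries of 1 series. GstE7 is above all controls through 4 h in all 6 series, while GstD2 is between 3.39 and 10.2 CPM at 0 h and above its own 0 h level at 8 h in all 6 series.

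Other GstE members gave smaller or single calls. GstE1, which conjugates the lipid peroxidation product 4-hydroxynonenal, was highest at 2 h, with 78.2 to 157 CPM (median 129) against 43.7 to 58.2 CPM in controls. Its log2 change was 0.84 ± 0.32 at 0 h, which did not pass, and 1.33 ± 0.33 at 2 h (adjusted p 0.0313). All 6 libraries of GstE1 at 2 h were above all controls. GstE5 (0.75 ± 0.20, adjusted p 0.0259) and GstE6 (0.49 ± 0.11, adjusted p 0.00925) rose at 0 h. The call of GstE5 was lost with limma-voom, with batch as a covariate and without any 1 of 3 controls (ablated old, wild type old, wild type young), and that of GstE6 in wild type libraries alone and without either old control. GstE2, GstE4 and GstE9 to GstE14 did not pass at any hour in the fit of all libraries. GstE9 passed at 0 and 2 h without the 2 libraries in doubt. GstE12 was below the control of its own genotype and age in 6 of 6 series at 0, 1, 2 and 4 h. It passed at 1, 2 and 4 h with batch as a covariate. Here and below, wild type non-climbers and climbers of an age share a control, and the same controls serve every hour. Counts of series against control are thus not independent. GstE14, known as Noppera-bo, acts in ecdysteroid synthesis.

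Of the Omega class, GstO3 alone was called. In controls it had 33.6 (ablated old), 60.1 (ablated young), 29.1 (wild type old) and 15.8 CPM (wild type young). It had 35.3 to 140 CPM at 0 h (median 85.7), 47.7 to 161 CPM at 2 h (median 73.8) and 43.0 to 69.5 CPM at 8 h (median 45.6). The groups overlapped at each of these hours with the ablated young control alone, 1 of the 2 libraries in doubt. The log2 change of GstO3 was 1.46 ± 0.31 at 0 h (adjusted p 0.00494), 1.33 ± 0.31 at 1 h and 1.40 ± 0.31 at 2 h, and it did not pass from 4 h on. Without the ablated young libraries GstO3 passed at all 6 hours, with 1.78 ± 0.25 at 0 h and 1.21 ± 0.25 at 8 h (adjusted p 0.00325). Its neighbours GstO1 and GstO2, on the other strand, stayed between 52.9 and 106 CPM in all 40 libraries and were not called against control.

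The members lower than control right after heat shock were GstD5 and GstT4. GstT4, a Theta class gene on the X chromosome, had 21.9 to 49.8 CPM at 0 h (median 37.2), against 79.7 (ablated old), 90.1 (ablated young), 36.9 (wild type old) and 59.5 CPM (wild type young) in controls. In each of the 6 series the 0 h library was below the control of its own genotype and age. The log2 change of GstT4 was -0.72 ± 0.12 at 0 h (adjusted p 0.000294) and -0.60 ± 0.12 at 1 h (adjusted p 0.00509). In wild type libraries alone it did not pass at 0 h (adjusted p 0.0815). GstD5 had 1.00 to 5.91 CPM at 0 h (median 2.48), against 5.01 (ablated old), 2.14 (ablated young), 7.01 (wild type old) and 14.2 CPM (wild type young) in controls. Its log2 change at 0 h was -1.34 ± 0.37 (adjusted p 0.0317), and its 0 h library was below its own control in all 6 series.

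GstD2 and GstD9 were the Delta members called higher than control, in the fit of all libraries at 8 h alone. In controls GstD2 had 16.3 (ablated old), 32.0 (ablated young), 12.2 (wild type old) and 10.2 CPM (wild type young). It had 3.39, 6.14 and 10.2 CPM as its lowest, median and highest levels at 0 h, 10.6, 13.5 and 46.2 CPM at 1 h, and 22.6, 52.8 and 115 CPM at 2 h. At 4 h it had 22.2, 51.3 and 197 CPM, at 6 h 9.20, 54.3 and 160 CPM, and at 8 h 22.4, 63.6 and 164 CPM. At 0 h every library was below its own control, and at 4 h every library was above it. The log2 change of GstD2 against control was -1.20 ± 0.56 at 0 h, 0.18 ± 0.55 at 1 h and 1.79 ± 0.57 at 2 h. It was 2.10 at both 4 h (± 0.58) and 6 h (± 0.58), and none of these passed. At 8 h it was 2.41 ± 0.59 (adjusted p 0.05 after rounding, under the threshold). In ablated young flies GstD2 was highest at 4 h, with 197 CPM, and had 9.20 CPM at 6 h and 22.4 CPM at 8 h, below its control. That control and the 6 h library are the 2 libraries in doubt, so this order rests on uncertain labels. Without the ablated young libraries GstD2 passed from 2 h on, with 1.86 ± 0.39 at 2 h (adjusted p 0.00556) and 2.82 ± 0.40 at 8 h (adjusted p 7.66e-05).

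GstD9 changed less, with 43.0 to 109 CPM at 8 h (median 52.9), against 44.9 (ablated old), 48.2 (ablated young), 35.2 (wild type old) and 27.6 CPM (wild type young) in controls. Each 8 h library was above its own control, although the ranges overlapped. The log2 change of GstD9 was 0.68 ± 0.17 at 8 h (adjusted p 0.0418). GstD10 had 1.18 ± 0.32 at 8 h and did not pass (adjusted p 0.0697). Without the ablated young libraries GstD10 (1.48 ± 0.33, adjusted p 0.00304) and GstD1 (0.33 ± 0.09, adjusted p 0.0145) passed at 8 h as well.

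**Figure D2:**
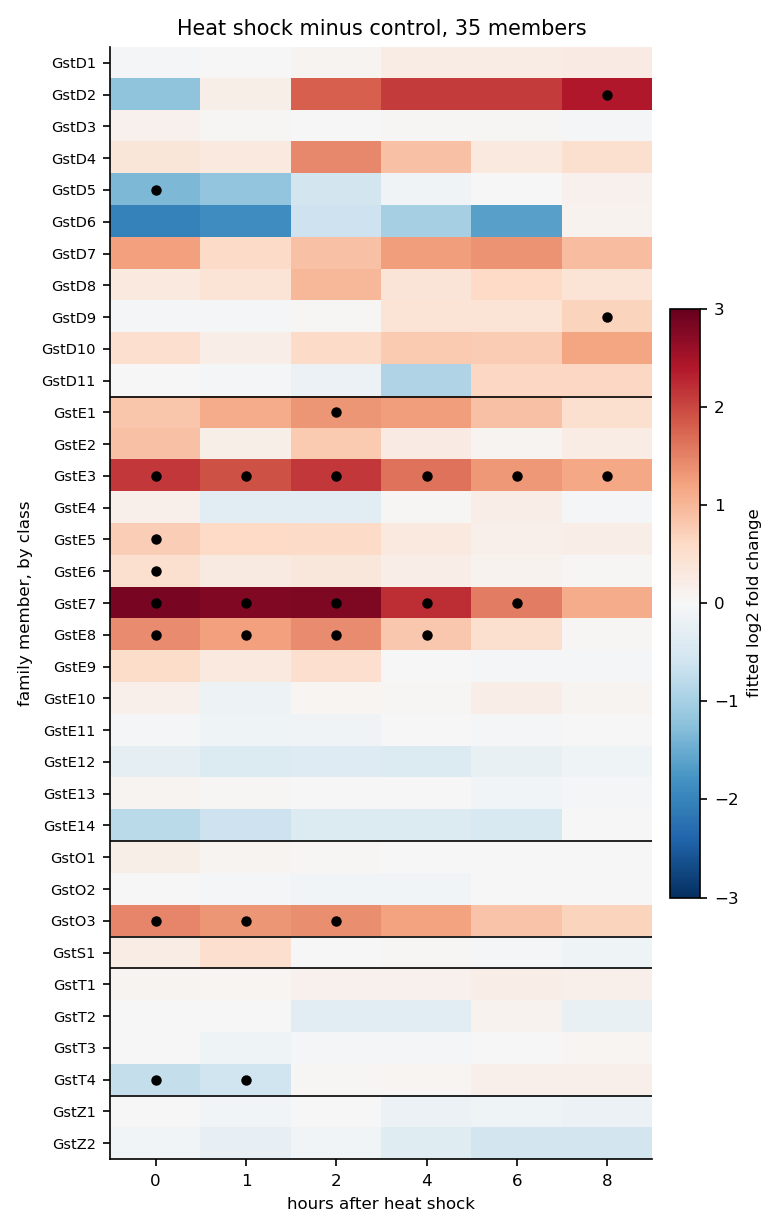
Fitted log2 fold change of heat-shocked against control libraries for the 35 members (rows, by class) at 6 hours (columns). Dots mark adjusted p-values under 0.05. GstE7 is at 2.85 at 0 h and fades to the right, and GstD2 is at -1.20 at 0 h and at 2.41 at 8 h.

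Late was then set against early recovery, 8 h minus 0 h, which uses no control library and 6 libraries at each hour. No control was taken at 0 h or 8 h, so recovery and hour of collection cannot be told apart here. Only in ablated old flies were the 0 h and 8 h libraries in the same batch. In the other series hour and batch can hardly be told apart. Of the 35 members, 5 were higher at 8 h and 7 were lower, where 6.46% of all genes were higher and 4.03% lower. The 5 that rose were GstD2 (3.61 ± 0.54, adjusted p 2.97e-05), GstD5 (1.46 ± 0.33), GstT4 (0.86 ± 0.11), GstD9 (0.73 ± 0.14) and GstD1 (0.31 ± 0.08). The 7 that fell were GstE7 (-1.73 ± 0.27, adjusted p 6.07e-05), GstE8 (-1.39 ± 0.13), GstE3 (-0.97 ± 0.22), GstO3 (-0.79 ± 0.26), GstE9 (-0.60 ± 0.16), GstE5 (-0.55 ± 0.17) and GstE6 (-0.46 ± 0.10). No GstE member rose and no GstD member fell. The median change was 0.614 over the GstD class and -0.41 over the GstE class, against -0.059 over all genes. Of the GstD members 7 of 11 and of the GstE members 8 of 14 were not called. Without the 2 libraries in doubt 5 members were higher and 7 lower, and with batch as a covariate the counts were 5 and 2.

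The direction was shared by the series. GstD1, GstD2, GstD5, GstD9 and GstT4 were higher at 8 h than at 0 h in 6 of 6 series, and GstE7 and GstE8 were lower in 6 of 6. GstE3, GstE6, GstE9 and GstO3 were lower in 5 of 6 series, and GstE5 in 4 of 6. GstD1, the most abundant tag of the family, had 1510 to 2470 CPM at 8 h (median 1930), against 1380 to 1990 CPM at 0 h (median 1490). GstD5 had 2.28 to 11.0 CPM at 8 h (median 8.74), against 1.00 to 5.91 CPM at 0 h. All 6 of these 8 h levels lay within the range of the controls, 2.14 to 14.2 CPM, and the log2 change of GstD5 at 8 h against control was 0.12 ± 0.36. GstT4 had 42.5 to 116 CPM at 8 h (median 63.7), against 21.9 to 49.8 CPM at 0 h.

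Over all 6 hours, 10 of 35 members differed among hours, against 8.71% of all genes, and these were GstD1, GstD2, GstD5, GstD9, GstE3, GstE6, GstE7, GstE8, GstE9 and GstT4. The fitted level peaked between 0 and 2 h for 9 of 14 GstE members and for 3 of 11 GstD members. Taken series by series, 57 of 84 GstE courses and 15 of 66 GstD courses had their highest library between 0 and 2 h. Each of GstE6, GstE7, GstE8 and GstE9 peaked by 2 h in 6 of 6 series. GstD1, GstD2, GstD5, GstD9 and GstD10 peaked at 4 h or later in 6 of 6 series. Courses of 1 library share that library with the other members, so they are no replicates of each other.

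**Figure D3:**
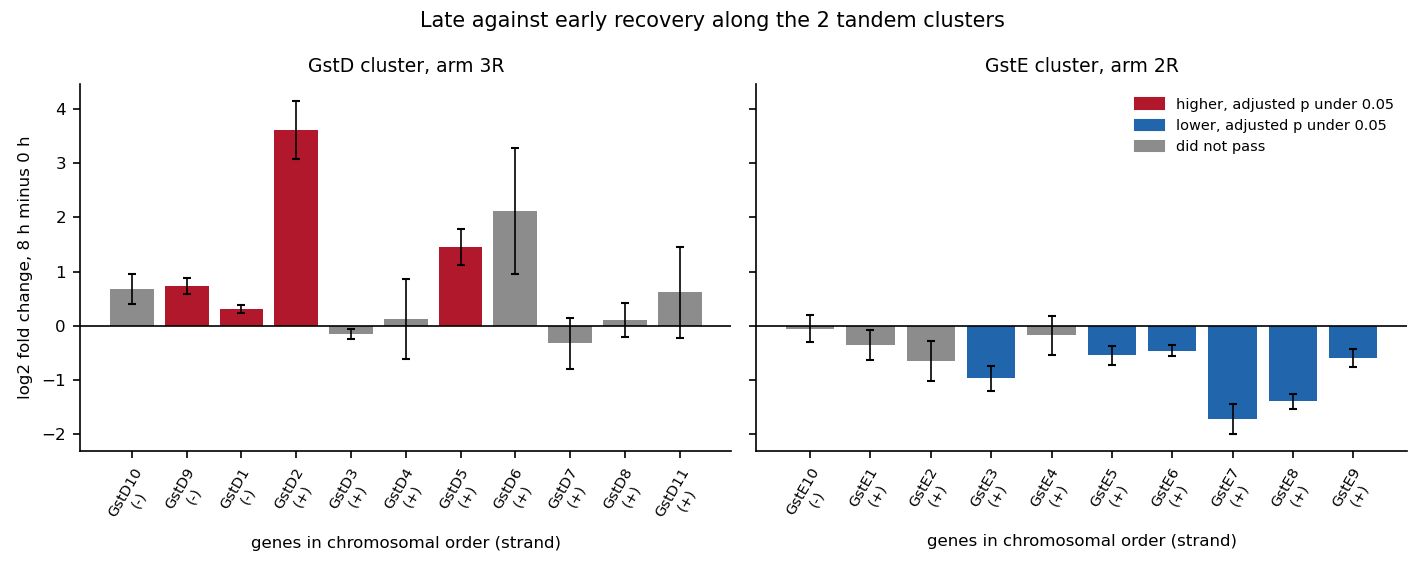
Log2 fold change of 8 h against 0 h (bars, with SE) for the genes of the GstD and GstE tandem clusters in chromosomal order, with the strand under each name. Red and blue bars passed the threshold. GstD2 stands at 3.61 next to GstD3 at -0.16, and the 5 genes from GstE5 to GstE9 are all lower.

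Of the 7 members that fell, all but GstO3 lie in the GstE cluster. GstE5, GstE6, GstE7, GstE8 and GstE9 follow each other on the plus strand, and all 5 were lower at 8 h than at 0 h, as was GstE3. Of these only GstE7 and GstE8 passed with batch as a covariate. GstE4, between GstE3 and GstE5, had 0.815 to 6.91 CPM over the 40 libraries and a change of -0.18 ± 0.36. GstE10, on the minus strand at the other end, had -0.05 ± 0.25. A transcript annotated as a pseudogene, CR43687, lies between GstE3 and GstE4 at 18401846 to 18402297 on arm 2R. CR43687 had 14.6 to 61.3 CPM at 0 h, against 0 to 0.721 CPM in controls (adjusted p 1.13e-05).

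In the GstD cluster the pattern was broken up. GstD9 and GstD1, next to each other on the minus strand, and GstD2, the first gene of the plus strand block, were higher at 8 h, as was GstD5 (1.46 ± 0.33), which lies between GstD4 and GstD6. GstD10, beside GstD9 on the minus strand, was higher at 8 h than at 0 h in 5 of 6 series. It was not called, but passed without the ablated young libraries. GstD3, the next gene after GstD2 on the same strand, had 41.3 to 105 CPM over the 40 libraries and a change of -0.16 ± 0.10. GstD4, GstD6, GstD7, GstD8 and GstD11 had median levels of 0.113 to 1.59 CPM, and standard errors between 0.31 and 1.17 on the log2 scale, so changes of the size seen in GstD1 were not detectable in them at this depth.

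The ratio of GstE7 to GstD2 within a library does not depend on the scaling of that library, so it was followed over the hours. The efficiency of 3' capture differs between transcripts, so the ratio is read between libraries only. Its log2 value was 4.09 to 4.92 at 0 h and 2.31 to 3.43 at 1 h. At 2 h it was 0.59 to 2.36, and at 8 h it was -1.42 to 0.29. All 6 libraries of 0 h lay above all later ones. In 5 of the 6 series the ratio was lower at 8 h than in the control of the same genotype and age, which had 0.25 (ablated old), 0.73 (wild type old) and 0.76 (wild type young). Ablated young flies were the exception, with 4.66, 2.31, 0.59, -1.04, 1.27 and 0.29 from 0 to 8 h and -0.04 in the control. That control and the 6 h library are the 2 libraries in doubt, so the exception rests on uncertain labels. Both genes were chosen for the size of their changes with hour, so the ratio is a description.

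**Figure D4:**
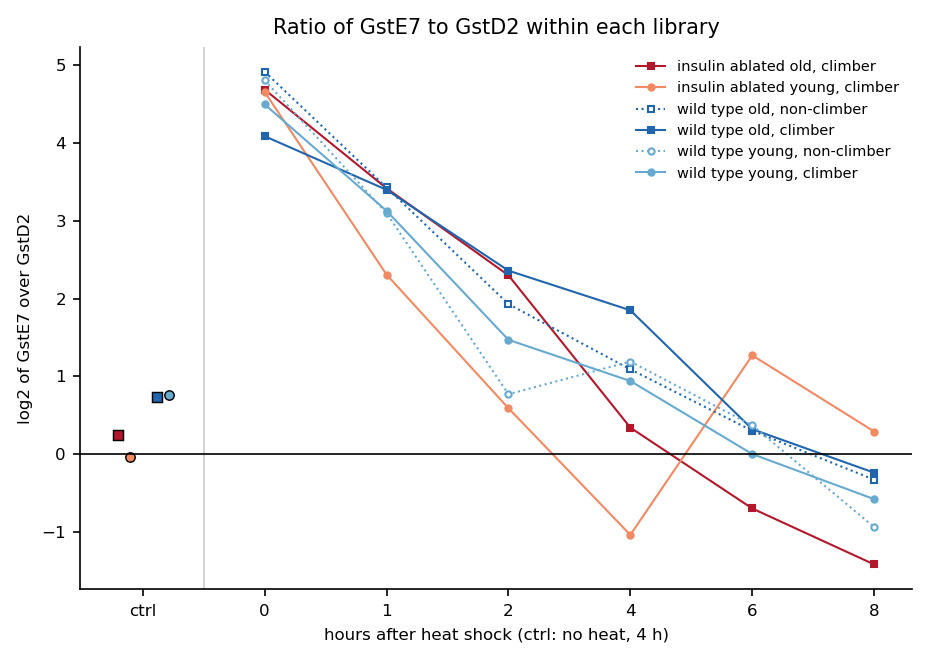
Log2 ratio of GstE7 to GstD2 in each of the 40 libraries, against hours after heat shock, with controls at the left (black edges). All series start between 4.09 and 4.92 at 0 h, and all but ablated young are below 0 at 8 h.

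Tissue markers moved over the same hours. All 7 follicle cell markers of the ovary were lower at 8 h than at 0 h, with a median log2 change of -3.64, and their summed level was 75.7 to 738 CPM at 8 h, against 2450 to 6430 CPM at 0 h. Of 6 fat body and yolk genes 3 were lower (summed 5720 to 13500 CPM at 8 h, against 11500 to 24100 CPM at 0 h). None of 7 midgut and 5 muscle markers was called in this contrast. The part of these tissues in the changes of the family was not tested. The inducible heat shock genes fell with the GstE members, 14 of 14 being lower at 8 h than at 0 h (median -2.61), and 13 of 14 were higher at 0 h than in controls (median 4.12).

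Age was compared within genotype, old minus young. In wild type flies 6 of 35 members differed, against 23.5% of all genes, so the share was no larger than the background. GstD8 had 0.563 to 3.09 CPM in old (median 1.94) and 0.575 to 1.41 CPM in young flies (median 0.938), a change of 1.03 ± 0.29. GstE10 had 3.69 to 8.86 CPM in old (median 6.39) and 1.15 to 5.01 CPM in young flies (median 2.81), a change of 0.99 ± 0.24 (adjusted p 0.00223). GstT4 had 21.9 to 54.3 CPM in old (median 42.5) and 32.5 to 83.2 CPM in young flies (median 63.4), a change of -0.54 ± 0.10 (adjusted p 0.000141). The ranges of all 3 overlapped between the ages. GstE5 was higher (0.43 ± 0.16), and GstE13 (-0.30 ± 0.09) and GstO2 (-0.24 ± 0.09) were lower. With batch as a covariate no member was called, and 79 genes were called in all. The change was then 0.95 ± 0.45 for GstE10 (adjusted p 0.541), 0.89 ± 0.57 for GstD8 (adjusted p 0.743) and -0.60 ± 0.20 for GstT4 (adjusted p 0.223). Old and young wild type flies share 1 of the 5 batches, so age and batch can hardly be told apart. Of 7 midgut markers 4 were lower in old wild type flies (median -0.75; summed 792 to 1670 CPM in old and 1470 to 3060 CPM in young climbers and control), and of 6 fat body and yolk genes 4 were lower (median -1.05). Of 4 haemocyte markers 2 were lower (median -1.20), of 5 muscle markers 2 were lower (median -0.89), and of 4 Malpighian tubule markers 2 were higher (median 0.60). The part of these tissues in the age differences of the family was not tested.

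In ablated flies 11 members differed with age, against 37% of all genes, so the share was no larger than the background. The largest rises were those of GstD9 (0.65 ± 0.13, adjusted p 0.000199), GstE8 (0.31 ± 0.12), GstT3 (0.30 ± 0.08), GstZ1 (0.24 ± 0.09), GstD1 (0.22 ± 0.07) and GstO1 (0.18 ± 0.07). The 4 falls were those of GstD11 (-2.22 ± 0.80), GstZ2 (-0.73 ± 0.25), GstS1 (-0.52 ± 0.18) and GstT4 (-0.35 ± 0.10). GstD9 had 44.9 to 109 CPM in old (median 58.8) and 28.4 to 66.3 CPM in young ablated flies (median 40.4). GstT4 fell with age in both genotypes. GstZ1 is maleylacetoacetate isomerase, an enzyme of tyrosine breakdown. All 4 neuron markers were lower in old ablated than in young ablated flies (median -1.93; summed 28.4 to 36.5 CPM in old and 63.0 to 210 CPM in young), and all 5 muscle markers were lower (median -1.61; summed 495 to 734 CPM in old and 1270 to 2700 CPM in young). GstS1, known as an abundant protein of flight muscle, had 133 to 176 CPM in old (median 150) and 187 to 300 CPM in young ablated flies (median 205). The part of tissue amounts in these differences was not tested. Without the 2 libraries in doubt 4 members were higher and 2 lower. Every ablated old library was in batch 5, and of the ablated young libraries only that of 8 h. Age and batch can thus hardly be told apart in ablated flies either. With batch as a covariate most of these 11 members did not pass, and GstD5 and GstE1, uncalled in the full fit, were called.

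Ablated were compared with wild type flies next, at each age. In young flies 12 members were higher in ablated flies, against 18.2% of all genes, and GstD5 was lower (-0.80 ± 0.31). The call of GstD5 was lost in 12 of 32 alternatives, without the wild type young control among them, and its change came as near to 0 as -0.12. Without the 2 libraries in doubt 13 members were higher in young flies and none was lower, since GstD5 (-0.52 ± 0.33, adjusted p 0.267) and GstE12 (0.29 ± 0.12, adjusted p 0.0779) did not pass while GstD2 (1.19 ± 0.40) and GstE3 (0.63 ± 0.19) did. In old flies 20 members were higher, against 29.9% of all genes, and GstS1 was lower (-0.46 ± 0.19). The members higher at both ages were GstD1, GstD3, GstD7, GstE5, GstE9, GstE11, GstE12, GstT3 and GstT4. The median change over the 35 members was 0.346 in young and 0.532 in old flies, against 0.036 and 0.081 over all genes.

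GstD7 had the largest rise at both ages, at a low level. It had 1.79 to 3.50 CPM in ablated young flies (median 3.20) and 0 to 1.27 CPM in wild type young climbers and control (median 0.595), without overlap, a change of 2.17 ± 0.45 (adjusted p 0.000305). In old flies it changed by 1.84 ± 0.46. GstE4 (1.41 ± 0.34), GstZ2 (1.40 ± 0.25) and GstE5 (1.14 ± 0.16) came next in young flies, followed by GstD8 (1.06 ± 0.29) and GstD3 (0.74 ± 0.09). In old flies GstD2 (1.18 ± 0.46), GstT3 (0.94 ± 0.09), GstD3 (0.91 ± 0.09), GstE3 (0.89 ± 0.21) and GstE8 (0.79 ± 0.12) came after GstD7.

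GstD3 and GstE11 were separated by genotype at both ages. GstD3 had 75.2 to 102 CPM in ablated old flies (median 90.5), against 43.1 to 53.1 CPM in wild type old flies (median 46.2). It had 67.6 to 105 CPM in ablated young flies (median 87.0), against 45.6 to 57.5 CPM in wild type young flies (median 53.7). GstE11 had 73.6 to 104 CPM in ablated old flies (median 85.0), against 46.7 to 57.6 CPM in wild type old flies (median 53.7), and 70.9 to 91.0 CPM in ablated young flies (median 81.0), against 52.4 to 63.3 CPM in wild type young flies (median 57.9). None of these 4 pairs of ranges overlapped. Neither gene was called with heat at any hour or between 8 h and 0 h. GstT3 had 60.5 to 71.1 CPM in ablated old flies (median 62.0), against 29.2 to 40.8 CPM in wild type old flies (median 33.9), again without overlap. GstD1 had 1830 to 2720 CPM in ablated old flies (median 2180), against 1350 to 1570 CPM in wild type old flies (median 1490), a change of 0.59 ± 0.07 (adjusted p 2.78e-08).

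**Figure D5:**
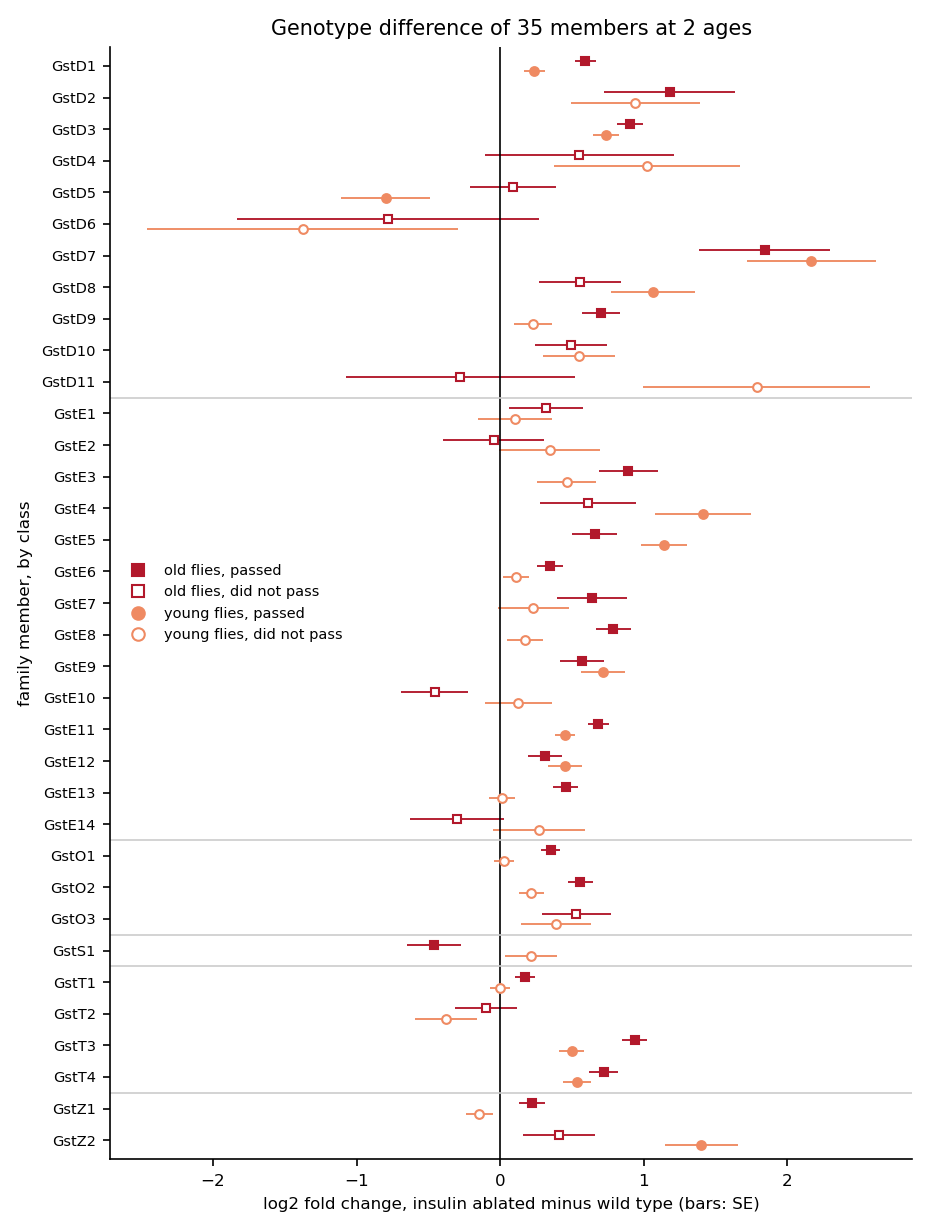
Log2 fold change of ablated against wild type flies for the 35 members, with SE, in old (squares) and young flies (circles). Filled symbols passed the threshold. Most members lie to the right of 0, with GstD7 at 1.84 in old and 2.17 in young flies, and GstS1 at -0.46 in old flies.

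Genotype was nearly inseparable from batch and from a split of the libraries. The first principal component of the noncoding transcripts (26.8% of their variance) put 12 ablated libraries apart from all 26 wild type libraries and from the 2 ablated libraries of young flies at 0 h and 1 h. With batch as a covariate no member was called in young flies, where GstD3 had 0.85 ± 0.26 (adjusted p 0.0742) and GstD7 4.28 ± 1.43 (adjusted p 0.103). In that fit GstD1 (1.05 ± 0.26, adjusted p 0.0304) and GstE1 (3.16 ± 0.72, adjusted p 0.0232) were called in old flies. When ablated young flies were represented by their 0 h and 1 h libraries alone, 8 members and 1999 of all 11740 genes were called. GstD3 (0.65 ± 0.11), GstE5 (0.76 ± 0.21), GstE11 (0.34 ± 0.11) and GstT4 (0.46 ± 0.15) were higher again. GstD2 (1.33 ± 0.41), GstE3 (0.93 ± 0.24) and GstE7 (0.89 ± 0.24) were higher, and GstE13 was lower (-0.40 ± 0.11), all 4 uncalled in the full fit of young flies. All 7 midgut markers were higher in ablated flies at both ages, with a median of 1.57 in old and 1.33 in young flies. Their summed level was 2730 to 5210 CPM in ablated old, against 792 to 1670 CPM in wild type old flies, and 3110 to 7660 CPM in ablated young, against 1470 to 3060 CPM in wild type young flies. All 4 neuron markers were lower in ablated than in wild type old flies (median -1.44). The part of these tissues in the differences of the family was not tested.

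Whether age acted differently in the genotypes was tested as an interaction, the age difference in ablated minus that in wild type flies. It was called for 10 members, against 36.4% of all genes, so the share was no larger than the background. The largest were GstZ2 (-0.99 ± 0.35), GstS1 (-0.68 ± 0.26), GstE8 (0.61 ± 0.17), GstD9 (0.47 ± 0.19), GstE13 (0.44 ± 0.13) and GstT3 (0.44 ± 0.12). GstS1 had 612 CPM in the wild type old climber library of 1 h, while its 39 other libraries were at or below 300 CPM. The summed level of 5 muscle markers was 2790 CPM in that library, against 460 to 614 CPM in the other 12 wild type old libraries, and their part in its GstS1 level was not tested. Without that library the interaction of GstS1 was -0.29 ± 0.11 (adjusted p 0.0457), and without the 2 libraries in doubt it was -0.64 ± 0.29 and did not pass (adjusted p 0.0754). Without the wild type old 1 h climber the lower GstS1 of ablated old flies was lost too, with -0.09 ± 0.08 (adjusted p 0.391). In wild type flies as well, GstS1 was lower in the old library in 12 of 13 pairs of the same hour and behaviour. Its age difference in wild type flies, uncalled in the full fit, was called without that library.

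Time courses were compared by their slopes, with hours entered as log2(hour + 1). The slope of old minus young wild type flies was called for GstD5 alone, -0.62 ± 0.13 per unit of that scale (adjusted p 0.0332), against 0.203% of 11330 genes. GstD5 in old climbers was 5.84 CPM at 8 h and 3.05 CPM at 0 h, and in young climbers 11.0 CPM at 8 h and 1.00 CPM at 0 h. The slope of ablated minus wild type young flies was called for 5 members, against 17.7% of 11467 genes, so the share was no larger than the background. GstE7 fell more steeply in ablated flies (-0.76 ± 0.16, adjusted p 0.00515), and GstZ2 (0.69 ± 0.18), GstE12 (0.43 ± 0.08), GstO2 (0.24 ± 0.07) and GstE13 (0.20 ± 0.06) had higher slopes. Without the 2 libraries in doubt the slope of GstE7 was still lower, by -0.60 (adjusted p 0.00102), and that of GstE13 did not pass (adjusted p 0.0533). The call of GstE13 held in 5 of 16 alternatives and that of GstO2 in 9. The ablated young libraries of 0 h and 1 h lie in 1 set of the noncoding split and those of 2 to 8 h in the other, so hour and library set cannot be told apart in these slopes. In old flies 0 members were called by edgeR (0% of all genes), while 5 members had an unadjusted p under 0.05. DESeq2 called 0 members and 34 genes, and limma-voom 0 members and 1 gene. A slope difference that was not called does not show that the courses were alike.

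Non-climbers were compared with climbers over 12 pairs of wild type libraries. By edgeR 0 members and 0% of all genes were called, while 3 members and 429 genes had an unadjusted p under 0.05. DESeq2 called 0 members and 1 gene, and limma-voom called 0 genes. The members with the smallest p were GstE10 (-0.46 ± 0.18), GstE6 (-0.18 ± 0.07) and GstE5 (-0.26 ± 0.12), each with an adjusted p of 1.

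Genes that work with glutathione transferases were counted from fixed lists. Of 6 tested genes of glutathione synthesis and turnover, 1 was higher at 0 h than in controls, Gclm, the modifier subunit of the enzyme that makes the precursor of glutathione (0.32 ± 0.08, adjusted p 0.0171). Gclm was lower at 8 h than at 0 h (-0.24 ± 0.07) and was the only one of the 6 called there. Of 11 thioredoxin and peroxide genes, Trxr1, thioredoxin reductase, was higher at 0 h than in controls (0.45 ± 0.09) and lower at 8 h than at 0 h (-0.29 ± 0.08). The peroxiredoxins Prx6c (1.45 ± 0.21) and Prx6b (1.03 ± 0.21) were higher at 8 h than at 0 h. Of 10 factors of antioxidant transcription, Xrp1 (0.98 ± 0.16) and Irbp18 (0.40 ± 0.12), which bind DNA as a pair, were higher at 8 h than at 0 h, none was lower, and cnc was not called. None of the 10 factors was called against control at any hour. Among 5 genes like glutathione transferases outside the symbol rule, eEF1gamma was lower at 8 h (-0.21 ± 0.06).

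The other detoxification families also held members that were higher at 8 h than at 0 h. Of 30 tested UDP-glycosyltransferases, which attach sugars to toxins, 5 were higher at 8 h than at 0 h and 2 were lower, with Ugt37C2 (1.85 ± 0.41), Ugt305A1 (1.69 ± 0.37) and Ugt301D1 (1.24 ± 0.18). Of 24 cytochrome P450 genes of family Cyp6, 6 were higher and 1 was lower, with Cyp6a8 (2.82 ± 0.53), Cyp6w1 (1.57 ± 0.24) and Cyp6a13 (0.89 ± 0.17). No member of these 2 families was higher at 0 h than in controls, where 1 and 3 were lower. At 8 h none of either family was called against control. The median change against control was -0.232 and -0.256 at 0 h, and 0.048 and 0.003 at 8 h. None of the 7 genes for exporters of glutathione conjugates was called between 8 h and 0 h. In ablated young flies 16 of 30 UDP-glycosyltransferases were higher than in wild type young flies and none was lower, with a median of 0.836. In old flies 12 were higher and 4 lower (median 0.416). These counts are to be read against the same backgrounds of 6.46%, 18.2% and 29.9% higher genes, and with the same limits of batch and library set.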

How the data were processed

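RNA of whole flies was sequenced from the 3' end with a Lexogen kit, and read 1 alone was analysed, per the labels. The authors deposited raw counts per gene for 40 libraries. STAR 2.7.5a and dm6 are named in the submitters' processing notes, and the counting tool, annotation, strand setting and use of molecular identifiers are not given in the sources used here. FlyBase identifiers were matched to symbols and positions in the Ensembl annotation of BDGP6 (17596 of 17609 matched), and every column of the table belonged to a labelled library. Counts were filtered with filterByExpr, scaled by TMM and fitted with edgeR 4.0.16 (robust quasi-likelihood, R 4.3.3). The model had 4 combinations of genotype and age, 7 states (control and 6 hours) and a non-climber term at each age. Slopes were fitted in the 24 heat-shocked wild type libraries and in the 24 heat-shocked climber libraries. All p-values were adjusted by Benjamini-Hochberg over all genes of a fit. The members and gene lists were chosen with earlier results of these data known. Members called, and at most 6 in each direction per comparison of age or genotype, were named, together with up to 3 called genes of each list. Alternatives were RLE scaling, TMM without heat shock genes, no or a stricter filter, DESeq2 1.42.0, limma 3.58.1 (voom with batch as a random block), batch as a covariate, and sets of libraries left out. The closest 2 libraries had a correlation of 0.9803, and none were identical. The tests were tried on simulated data.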

Additional observations from a re-analysis of the deposited data

Results flagged for a closer look

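The age difference of 10 members differed between genotypes, by the interaction term of the fit (edgeR, adjusted p under 0.05). With 36.4% of all genes called, the share was no larger than the background. Written as the difference in ablated minus that in wild type flies, it was -0.99 for GstZ2 and -0.68 for GstS1. It was 0.61 for GstE8, 0.47 for GstD9, 0.44 for GstE13, 0.44 for GstT3, 0.37 for GstZ1, 0.36 for GstD1, 0.34 for GstO2 and 0.32 for GstO1. With batch as a covariate these 10 did not pass, GstE13 and GstO2 changed sign, and GstE1 was called instead.

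The change with hour differed between groups for 6 members, by the test of the difference in slope over log2(hour + 1). It was called for 0.203% of all genes between old and young wild type flies, and for 17.7% between ablated and wild type young flies. In the latter comparison the share of members was no larger than this background. In wild type flies the slope of GstD5 was lower in old than in young flies by -0.62. In young climbers the slope in ablated minus wild type flies was -0.76 for GstE7, 0.69 for GstZ2, 0.43 for GstE12, 0.24 for GstO2 and 0.20 for GstE13. None of these 6 was called with batch as a covariate.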

How the results depend on the processing

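Limits come first. No condition was replicated, 5 batches follow genotype, age and hour, and 12 of 14 ablated libraries stand apart from the rest. Leaving out sets of ablated libraries, wild type libraries alone, or the wild type old 1 h climber was chosen after seeing the data.

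Under every alternative tried, GstE7 and GstE3 at 0, 1, 2 and 4 h, GstE8 at 0, 1 and 2 h, and GstD2, GstD9, GstE7, GstE8 and GstT4 at 8 h minus 0 h stayed called. Of 20 alternatives, the 8 h call of GstD2 held in 9, that of GstD9 in 10, and the 8 h minus 0 h call of GstO3 in 8.

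The number of all genes called differed between fits. A count of members given, here or above, without the share of all genes in its own fit is thus no result about the family. Members called are given next, beside the main counts of 8, 5, 5, 3, 2 and 3 at 0, 1, 2, 4, 6 and 8 h, 12 at 8 h minus 0 h and 10 among hours. Without ablated young libraries there were 8, 9, 7, 8 and 7 from 1 to 8 h. Without the 2 libraries in doubt there were 7, 5 and 6 at 4, 6 and 8 h, and with wild type libraries alone 5 at 6 h and 5 at 8 h. Without the wild type old 1 h climber there were 0 at 6 h and 1 at 8 h. DESeq2 gave 6 at 4 h and 5 at 8 h, and limma-voom 0 at both 6 and 8 h. The stricter filter gave 5 at 4 h, RLE scaling 0 at 6 h, and no filter 0 at 6 h and 1 at 8 h. Batch as a covariate gave 7 at 4 h, 7 at 8 h minus 0 h and 6 among hours, and the libraries of 8 and 0 h alone gave 5.

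For age in ablated flies (11) RLE scaling gave 6, no filter 7, the stricter filter 5, DESeq2 7, batch 3, ablated libraries alone 5, and without the 2 in doubt 6. Batch gave 0 for age in wild type (6), 0 for genotype in young (13), 2 in old flies (21), and 1 for the age difference (10). Genotype in young flies gave 8 with the 0 h and 1 h ablated libraries alone. For the slope by age (1), RLE scaling, TMM without heat genes and the stricter filter each gave 2, DESeq2 4, and limma-voom, batch and slopes on hours 0. For the slope by genotype in young flies (5), no filter gave 3 and batch 0.

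With libraries left out in turn, the counts ran 5 to 9, 4 to 6, 3 to 6, 2 to 6, 0 to 3 and 0 to 6 over the hours from 0 to 8 h. They ran 10 to 12 at 8 h minus 0 h, 6 to 10 among hours, 3 to 6 for age in wild type, 3 to 11 in ablated flies, 11 to 18 for genotype in young, 16 to 22 in old flies, and 5 to 9 for the age difference. They ran 0 to 0 for behaviour, 0 to 3 for the slope by age, 3 to 6 for the slope by genotype in young and 0 to 0 in old flies.

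With batch as a covariate, signs turned for GstO2 with age in wild type (0.15) and in the age difference (-0.33), for GstE13 in the age difference (-0.10) and for GstE12 in genotype in old flies (-0.14). GstE12 in genotype in young flies was -0.0536 with the 0 h and 1 h libraries alone. The causes were not tested. Climbers and non-climbers share a condition, and the paired analysis with the pair as a block called 0 members. The libraries carry no replicate numbers, so no other paired analysis was possible because no numbers pair them.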
